A study of Homo sapiens with 23 samples.

Results

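Keratins are the intermediate filament proteins of epithelial cells. A type I keratin pairs with a type II keratin to form the filament, and the filaments are anchored at desmosomes and hemidesmosomes. Luminal cells of the breast characteristically use KRT8, KRT18, KRT19 and KRT7, whereas KRT5, KRT14 and KRT17 mark the basal and myoepithelial layer. The type I genes lie together on chromosome 17 and the type II genes on chromosome 12, where KRT18 is the type I exception beside its partner KRT8. The genes described here are 10 of the 60605 genes in a table of PRO-seq counts: the type I genes KRT10, KRT13, KRT15, KRT18, KRT19 and KRT23, and the type II genes KRT7, KRT8, KRT80 and KRT81. They were found by Ensembl identifier through their GENCODE 44 symbols, and all 10 matched. KRT23 was picked because it fell at 24 h, so every value of the 24 h comparison is a description. Calls of the fits at 24 h are named only as part of that description, and nothing is read from them.

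All 23 libraries came from Clone 28 of T47D, a luminal breast cancer line that expresses the estrogen receptor. This clone carries a degron on the endogenous TRPS1 gene, which encodes a GATA-family transcriptional repressor, and the controls carry the tag as well. Cells received 0.1% v/v DMSO for 24 h (n = 4) or 50 nM dTAG-13 and 50 nM dTAGV-1, together called dTAG. The dTAG exposures lasted 0.5, 1, 2 or 4 h, with 4 libraries at each, and 24 h, with 3 libraries (replicates 2, 3 and 4). The ligands recruit ubiquitin ligases to the tagged protein, which is then destroyed. PRO-seq counts engaged RNA polymerases, so the values are transcription and not standing mRNA. A single clone was used, and all dTAG time points were compared with the same 4 DMSO libraries.

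Total counts ranged from 4408544 to 17571616 per library. TRPS1 itself is removed as a protein, so its transcription gives no check of the labels, and its levels lay between 7997 and 11979 CPM (counts scaled to the TMM-adjusted library size) in every library. The luminal label held: 12 of 12 luminal markers passed the filter on low counts, the highest per kb of gene in DMSO being XBP1 (54.0 CPM per kb), GATA3 (36.5) and PGR (26.3). Their summed level was 7184 to 7983 CPM in DMSO, against 73.9 to 81.3 CPM for 10 basal or myoepithelial markers, of which 5 passed the filter. The highest of these per kb in DMSO were TAGLN (3.55 CPM per kb), ACTA2 (0.169) and TP63 (0.0744). KRT5, KRT14 and KRT17 had 0 to 6 counts in a library. Of 8 fibroblast and blood markers 4 passed, and the list's sum was 17.0 to 23.3 CPM over all libraries. Its highest genes per kb in DMSO were COL1A1 (0.772 CPM per kb), CD3E (0.0469, not past the filter) and COL3A1 (0.0449). The library of replicate 1 at 4 h had the lowest total and the highest mitochondrial share (6.50%, against 1.73% for the lowest library).

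RefSeq windows (GRCh38.p14) of 250 bases before the start were at hand for 2 members, KRT8 and KRT10. They are shown because TRPS1 is a GATA-family protein. A further reason is that levels of this type II and this type I member differed between replicate numbers alike, as given below. KRT10 passed no test, and its window was chosen after its values were seen. The windows were searched on both strands for the GATA words AGATAA and TGATAA. The search also took the words AGATAG and TGATAG of the same family. No pair of these words can match exactly the same run of bases, though matches can overlap in part. The estrogen receptor half-site AGGTCA was searched as well. Capitals mark a match. The KRT8 window, chr12:52926470-52926719 on the minus strand, lies before the RefSeq start, inside the longer GENCODE span of the gene. In GENCODE 8 of 18 KRT8 transcripts start within 1 kb of the far end of that span. Which starts are used in these cells was not tested. The KRT10 window is chr17:40822615-40822864 on the minus strand.
KRT8: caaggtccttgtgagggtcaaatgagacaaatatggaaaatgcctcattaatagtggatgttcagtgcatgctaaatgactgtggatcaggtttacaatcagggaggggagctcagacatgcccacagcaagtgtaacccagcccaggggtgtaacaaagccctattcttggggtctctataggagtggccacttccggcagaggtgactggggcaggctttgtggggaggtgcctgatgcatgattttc
KRT10: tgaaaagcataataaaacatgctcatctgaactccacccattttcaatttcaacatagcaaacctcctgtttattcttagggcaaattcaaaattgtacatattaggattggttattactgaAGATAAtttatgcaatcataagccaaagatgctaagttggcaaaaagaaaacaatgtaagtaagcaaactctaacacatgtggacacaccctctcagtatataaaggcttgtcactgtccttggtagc
The KRT10 window held 1 GATA match, which began 128 bases before the start, and the KRT8 window held none. Neither held the half-site. Of 35116 RefSeq windows of this length, 22.3% held at least 1 of the GATA words and 12.1% held the half-site. KRT7, KRT13, KRT15, KRT18, KRT19, KRT23, KRT80 and KRT81 have no entry.

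KRT19, a type I keratin that luminal cells carry and that lacks most of the tail domain, was the most transcribed member per length. In DMSO it had 70.5 ± 5.4 CPM per kb of gene span (SD, n = 4), followed by KRT18 with 16.2 ± 1.4 and KRT15 with 11.8 ± 1.2. The libraries of these 3 genes did not overlap. KRT80 (2.58 ± 0.13), KRT10 (2.56 ± 0.56), KRT8 (2.44 ± 0.29) and KRT7 (2.26 ± 0.04) came next, and the ranges of neighbours in this order overlapped. KRT23 followed with 1.58 ± 0.19 CPM per kb, below every KRT7 library. KRT13 and KRT81 stood at 0.169 ± 0.035 and 0.0817 ± 0.0533 CPM per kb, with overlapping ranges.

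The order depended on the length used. KRT8 is annotated over 52768 bases because 8 of its 18 transcripts start within 1 kb of the far end of the gene. Per kb of the union of exons, KRT8 rose to 18.7 ± 2.2 CPM per kb, between KRT18 (21.3 ± 1.8) and KRT15 (17.4 ± 1.8), and its range overlapped that of both neighbours. KRT19 was again the highest, with 141.7 ± 10.8, and KRT10 moved to 5.32 ± 1.16, below KRT23 with 8.10 ± 0.96. The plot of levels in DMSO shows both orders.

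**Figure D1:**
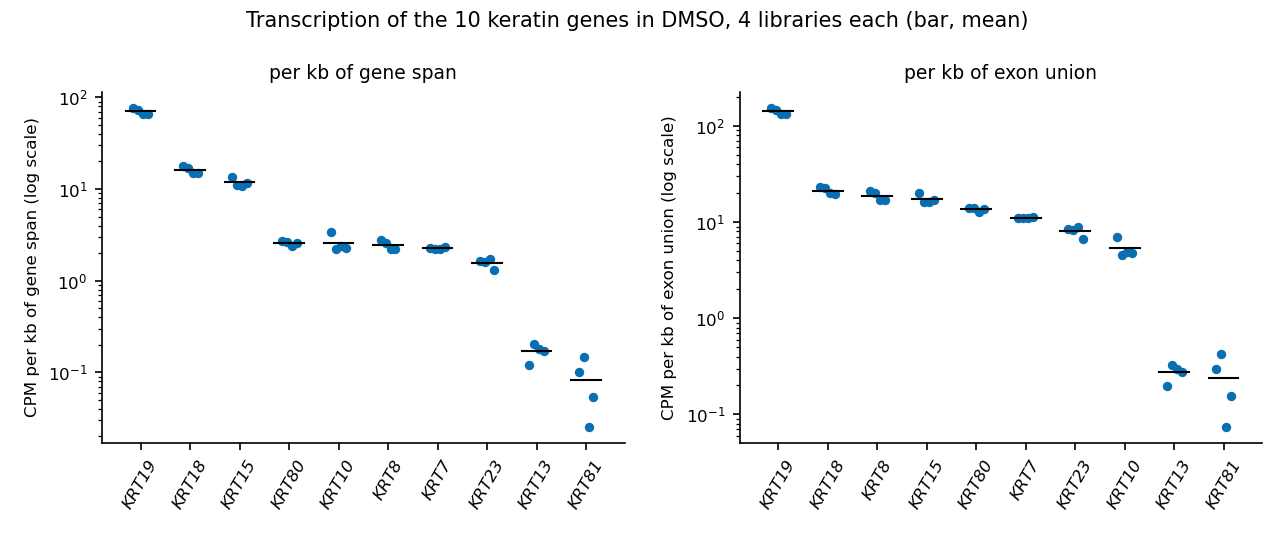
Transcription of the 10 keratin genes in the 4 DMSO libraries, as CPM per kb of the gene span (left) or of the union of exons (right), on log axes. Points are libraries and bars are means. KRT19 is highest on both scales, KRT13 and KRT81 are lowest, and KRT8 moves from 2.44 to 18.7 CPM per kb.

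KRT13 and KRT81 were at the floor of the measurement. KRT13, a keratin of stratified mucosal epithelia, had 1 to 12 counts in a library, and KRT81, a hair keratin, had 2 to 11. Both failed the filter on low counts, so 8 of the 10 members entered the tests. KRT13 had 0.799 ± 0.166 CPM in DMSO and 0.415 ± 0.112 CPM at 4 h (SD, n = 4), with all 4 h libraries below DMSO, as in 1.92% of the genes past the filter. KRT81 had 0.459 ± 0.299 and 0.408 ± 0.191 CPM. Fitted without the filter, KRT13 stood at -1.003 ± 0.430 log2 units at 4 h (SE, edgeR Benjamini-Hochberg adjusted p = 0.908) and KRT81 at -0.12 ± 0.54 (adjusted p of 1), and neither was called at any time.

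Several members share their position with other genes. KRT23 (chr17:40922700-40937646, minus strand) lies wholly inside an antisense noncoding gene, ENSG00000234477, with a mean of 211 counts for KRT23 and 78.1 for the antisense gene. KRT80 (chr12:52168996-52192014, minus strand) lies wholly inside antisense LINC00592, with 601 against 172 counts. KRT81 (chr12:52285913-52291534, minus strand) lies wholly inside KRT86 on the other strand, with 4.87 against 882 counts, a contrast that counting without strand would not give. Over the whole table, 229 of 1056 genes nested in a host on the opposite strand (21.7%) had more counts than the host, against 11 of 1271 (0.866%) on the same strand, so the strands appear to have been counted apart.

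The remaining overlaps were smaller. KRT8 and KRT18 start in opposite directions and share 1084 bases, which is 26.9% of KRT18. KRT10-AS1 covers 78.1% of KRT10 on the other strand, with a mean of 237 counts against 123. KRT7 shares 2887 bases (14.7% of its span) with KRT86 on the same strand, and KRT7-AS and KRT87P lie opposite it, with 69.9 and 2.00 counts. KRT13 has antisense ENSG00000229732 (0.261 counts) opposite it, and KRT15 holds MIR6510 on its own strand (1.83 counts). Also opposite KRT7 is ENSG00000290966, not analysed here. Of the overlapping genes that passed the filter, none was called in any comparison without the replicate term. KRT86 was called with it, lower at 4 h than at 0.5 h (log2 fold change -0.17 ± 0.05 SE, edgeR Benjamini-Hochberg adjusted p = 0.061).

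Near-identical copies limit some members as well. Of the 30-base words in annotated exons, KRT81 shares 53.7% with other keratin genes, KRT18 30.1% and KRT8 15.0%, mostly with processed pseudogenes in the last 2 cases. KRT19 shares 7.21%, KRT13 2.06%, and KRT7, KRT10, KRT15, KRT23 and KRT80 each under 2%. Counts of KRT18, KRT8 and KRT81 are the most exposed to this. The shares are of exon words and not of reads, so they do not give the size of the uncertainty.

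KRT15, a type I keratin of basal and progenitor cells that lies 1087 bases downstream of KRT19 on the same strand (chr17:41513745-41522529), had the largest log2 fold changes of the 8 tested members at each time up to 4 h. Whether polymerases past the end of the more transcribed KRT19 add to the counts of KRT15 was not tested. The DMSO libraries had 119.4, 97.3, 96.1 and 102.1 CPM in replicates 1 to 4. At 0.5 h they were 81.9, 81.6, 81.3 and 89.8 CPM, and at 1 h 78.8, 72.0, 79.97 and 83.5 CPM. Every library of both time points lay below every DMSO library, and among all genes tested 2.39% at 0.5 h and 2.91% at 1 h did so. At 2 h the values were 99.4, 80.4, 82.0 and 78.6 CPM, with replicate 1 inside the DMSO range. At 4 h they were 85.0, 81.5, 76.2 and 77.6 CPM, again all below DMSO, as were 1.92% of genes.

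Against DMSO the log2 fold change of KRT15 was -0.31 ± 0.07 (SE) after 0.5 h of dTAG and -0.40 ± 0.07 after 1 h. It was -0.29 ± 0.07 after 2 h and -0.37 ± 0.07 after 4 h. With edgeR's quasi-likelihood test and Benjamini-Hochberg adjustment over 26057 genes, the adjusted p was 0.0925, 0.00787, 0.109 and 0.0141 in that order. KRT15 thus fell at 0.5, 1 and 4 h at the threshold of 0.1, and it was lower in 4 of 4 same-numbered pairs at each time. Same-numbered libraries were taken to share a harvest. With the replicate number as a block, the 2 h value was called as well (log2 fold change -0.29, edgeR adjusted p = 0.0057). Over the time course from 0.5 to 4 h the edgeR adjusted p was 0.0405. Leaving out replicates 2, 3 or 4 raised the time course value to 0.312, 0.348 and 0.338 (edgeR, Benjamini-Hochberg). The 0.5 h call was lost without any 1 of the 4 replicates (edgeR adjusted p from 0.151 to 0.624). The 1 h call was lost without replicate 2 or 3 (0.117 and 0.116, edgeR adjusted p), and the 4 h call without replicate 3 or 4 (0.243 and 0.221), while every fold change stayed below 0.

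No further change of KRT15 was called between 0.5 and 4 h. Its 4 h value was 0.07 ± 0.07 log2 units (SE) below that of 0.5 h, in 3 of 4 pairs, with an edgeR Benjamini-Hochberg adjusted p of 0.938. At 24 h the libraries had 79.3, 81.1 and 86.1 CPM, a log2 fold change of -0.33 ± 0.08 (SE) that the edgeR fit called with all libraries and did not call without replicate 2, 3 or 4 (-0.34, -0.36 and -0.38).

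KRT15 was the one member that the edgeR fit of all libraries without the replicate term called from 0.5 to 4 h. Of 8 members tested, 1 was called over the time course, where 1.33% of all genes were, and 1 each at 0.5 h (0.476% of genes), 1 h (1.25%) and 4 h (0.833%). At 2 h 0 were called (0.733% of genes). At that time 4 members had an unadjusted p under 0.05 in edgeR, as did 1849 of 26057 genes. DESeq2 called 2 members at 2 h, and 286 of 15431 genes. With the replicate block 3 members were called over the time course (4.6% of genes). At 0.5 h the block gave 2 (2.48% of genes) and at 1 h it gave 4 (3.25%). At 2 h it gave 3 (2.43% of genes), and 1 remained at 4 h (2.49%). Every one of these calls was lower than DMSO. From 0.5 to 4 h, the 8 members had median log2 fold changes of -0.09, -0.18, -0.16 and -0.07 in time order, against 0.01, 0.01, 0.00 and 0.01 over all genes. The groups of 3 members, KRT7, KRT15 and KRT19, did not overlap with DMSO at 1 h (2.91% of genes were all below DMSO at 1 h). That of 1 member, KRT7, did not at 2 h (2.2% of genes were all below DMSO at 2 h).

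**Figure D2:**
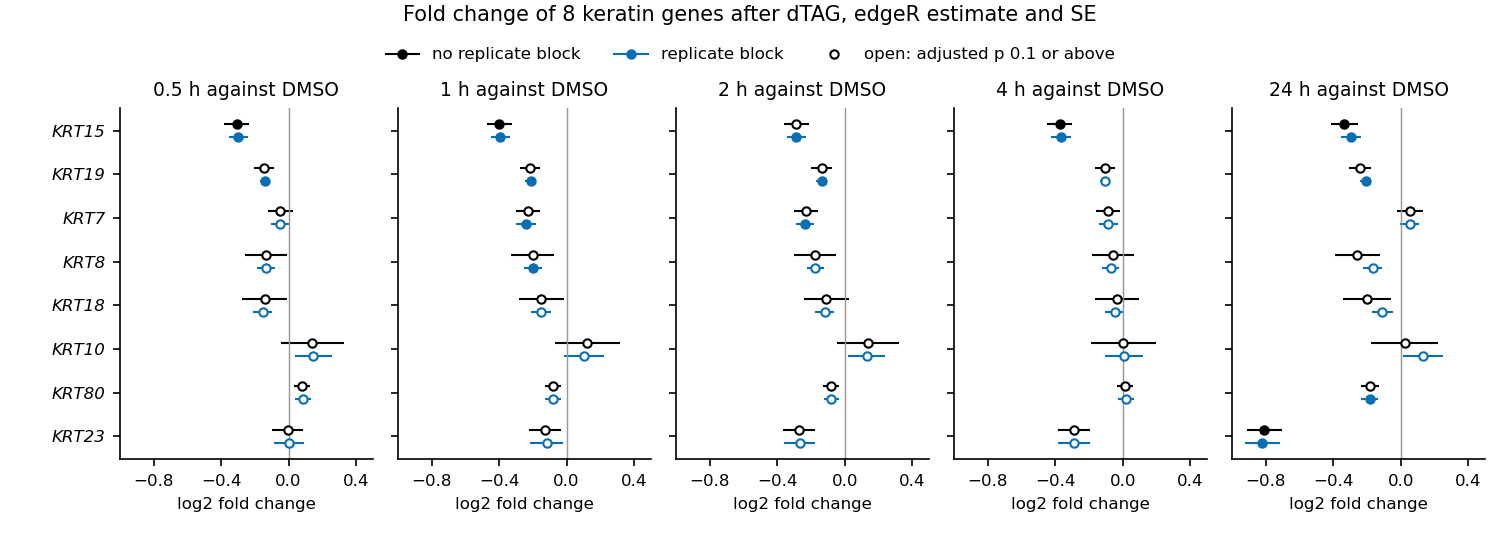
Log2 fold change against DMSO of the 8 tested keratin genes at each dTAG time, estimated by edgeR without a replicate term (black) and with the replicate number as a block (blue). Bars are standard errors and filled points have an adjusted p under 0.1. KRT15 lies between -0.40 and -0.29 at every time in black, and KRT23 reaches -0.81 at 24 h, the comparison it was picked from.

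KRT19 (chr17:41523617-41528308, minus strand), the gene upstream of KRT15, moved the same way by a smaller step. Its DMSO libraries had 362.0, 341.3, 310.1 and 310.5 CPM. At 1 h they were 295.0, 284.6, 275.2 and 284.9 CPM. The 1 h libraries all lay below DMSO, as in 2.91% of genes tested. The values of 0.5, 2 and 4 h overlapped with DMSO, with group means of 299.6 ± 14.0, 301.0 ± 23.3 and 307.9 ± 19.0 CPM (SD, n = 4). KRT19 was lower than DMSO in 4 of 4 pairs at all 4 times.

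Without the block the 1 h log2 fold change of KRT19, -0.22 ± 0.06 (SE), had an edgeR Benjamini-Hochberg adjusted p of 0.123. With the replicate block the adjusted p (edgeR, Benjamini-Hochberg) was 0.0207 at 0.5 h (-0.14 ± 0.03 SE), 0.000378 at 1 h (-0.21 ± 0.03), 0.0209 at 2 h (-0.14 ± 0.03) and 0.115 at 4 h (-0.10 ± 0.03). Over the time course it was 0.00776. DESeq2 without the block called KRT19 at 1 h (adjusted p = 0.0271). Without the 4 h library of replicate 1, which enters the shared estimate of spread, the edgeR adjusted p at 1 h was 0.0871.

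The levels of KRT15 and KRT19 correlated at r = 0.808 over the 23 libraries once replicate means were removed, the highest value among the 28 pairs of tested members. These points share time points and depth, and the genes are close neighbours on the same strand, so this is a description. Within a library, the log2 ratio of KRT15 to KRT19 counts needs no scaling. It was -1.68 ± 0.10 in DMSO (SD, n = 4) and -1.84, -1.86, -1.83 and -1.94 at 0.5, 1, 2 and 4 h, lower in 4 of 4 pairs each time. At 4 h the ratio lay below every DMSO library, with a 2-sided exact permutation p of 0.0286, the smallest that 4 against 4 libraries allow. Adjusted over the 8 ratio tests it was 0.229, and with that smallest p a single ratio of any size could not have passed, so these tests do not settle whether KRT15 fell further than KRT19. They also leave the pairing by replicate number aside. These ratios were chosen after the values had been seen.

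**Figure D3:**
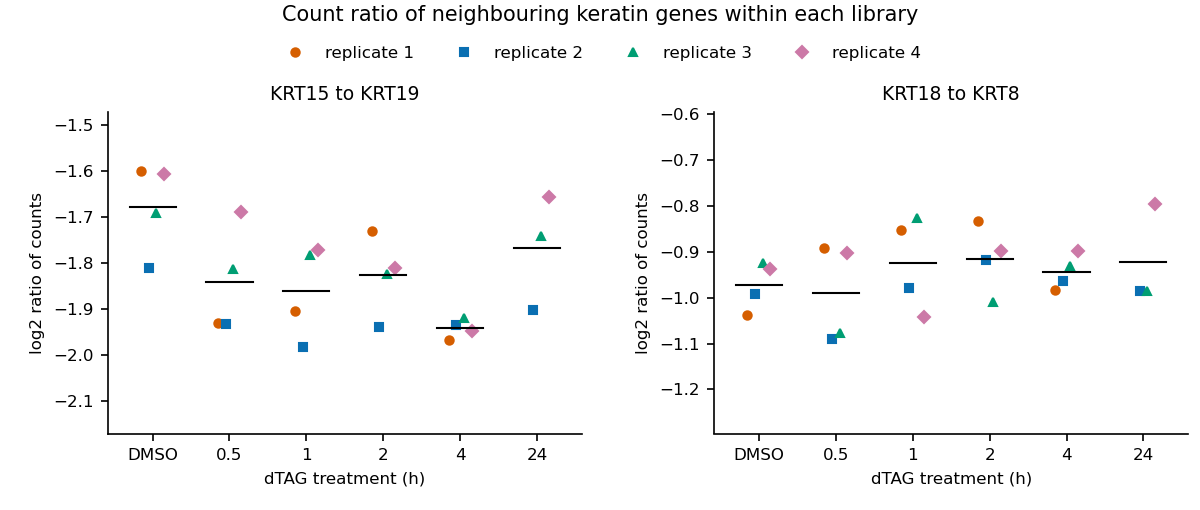
Log2 ratio of counts of KRT15 to KRT19 (left) and of KRT18 to KRT8 (right) within each library, by dTAG time, with replicate numbers as symbols and group means as bars. The 4 h libraries of KRT15 to KRT19 sit between -1.97 and -1.92, below the DMSO range of -1.81 to -1.60, and the KRT18 to KRT8 ranges overlap with DMSO at all times.

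KRT7 (chr12:52232520-52252186, plus strand), a type II keratin of simple glandular epithelia, dipped at 1 and 2 h. DMSO libraries had 44.4, 43.9, 43.7 and 45.6 CPM. At 1 h they had 43.5, 41.1, 34.3 and 32.9 CPM, and at 2 h 38.6, 38.9, 37.4 and 36.6 CPM. All libraries of both times were below DMSO, as in 2.91% of genes tested at 1 h and 2.2% at 2 h. Replicate 1 at 1 h was only narrowly below, and replicates 3 and 4 at 1 h were the lowest. Group means were 42.9 ± 2.9 at 0.5 h and 41.8 ± 2.4 CPM at 4 h (SD, n = 4), overlapping with DMSO.

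The log2 fold change of KRT7 was -0.23 ± 0.07 (SE) at both 1 and 2 h, with an edgeR Benjamini-Hochberg adjusted p of 0.218 and 0.267. With the replicate block the edgeR adjusted p was 0.032 at 1 h, 0.0285 at 2 h and 0.0518 over the time course. DESeq2 called the 2 h value (adjusted p = 0.0986). KRT7-AS, which lies opposite KRT7, had 5.99 ± 0.78 CPM in DMSO, 6.32 ± 0.70 at 1 h and 6.71 ± 0.27 at 2 h (SD, n = 4).

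KRT8 (chr12:52897187-52949954, minus strand) and KRT18 (chr12:52948871-52952906, plus strand) are the obligate pair of simple epithelia. Their levels differed more between replicate numbers than between time points. KRT8 had 146.3, 137.3, 116.1 and 115.9 CPM in the DMSO libraries of replicates 1 to 4, and 164.4, 119.3, 107.2 and 107.4 CPM at 4 h. KRT18 had 71.3, 69.0, 61.2 and 60.5 CPM in DMSO, and 83.1, 61.1, 56.2 and 57.6 CPM at 4 h. In both genes replicate 1 was the highest of its group from DMSO to 4 h, and the groups overlapped at those times.

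Replicate number held 72.9% of the variance of log2 CPM of KRT8 over the 20 libraries from DMSO to 4 h, and 78.1% for KRT18, while time point held 15.0% and 10.2%. Over all kept genes the medians were 25.2% for replicate number and 19.6% for time point. Replicate 1 lay 0.25 log2 units above the gene's mean in KRT8 and 0.28 in KRT18. KRT10 (chr17:40818117-40822614, minus strand), a type I keratin of differentiated epidermis, showed the same pattern, with 70.6% of its variance in replicate number, 5.94% in time point and replicate 1 at 0.32 log2 units above the mean. KRT15 was the reverse, with 68.0% in time point and 13.4% in replicate number. KRT80, KRT7 and KRT23 also had more in time point (54.4%, 51.8% and 51.1%) than in replicate number (6.94%, 16.6% and 4.02%). Replicate 1 also had the lowest or second-lowest total in its group and the highest mitochondrial share in each of the 5 groups that hold it, and whether these have a part in its keratin levels was not tested.

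**Figure D4:**
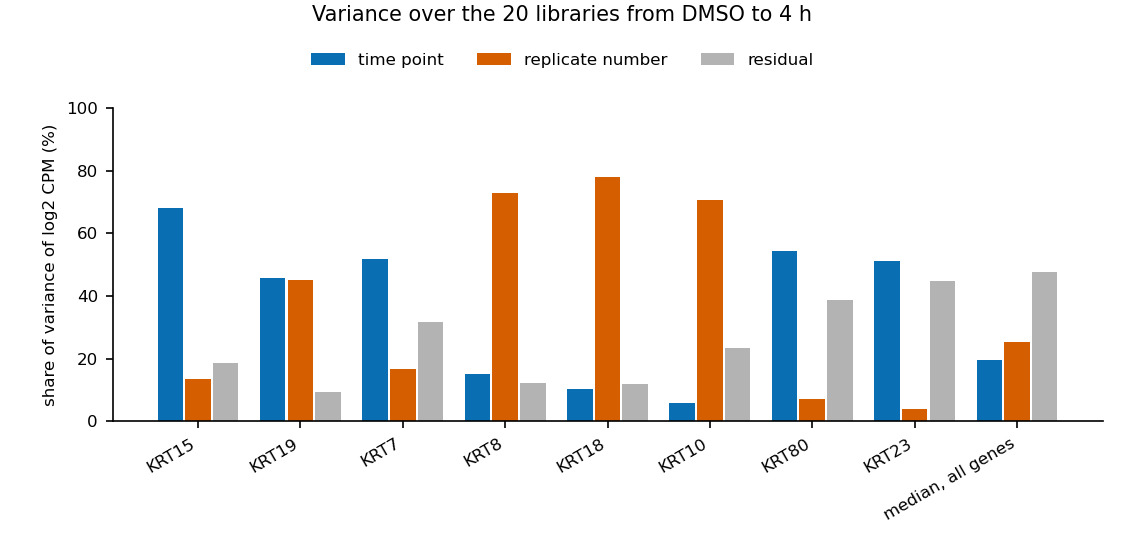
Share of the variance of log2 CPM that goes with time point, replicate number and neither, over the 20 libraries from DMSO to 4 h, for 8 keratin genes and as the median over all kept genes (the 3 medians need not sum to 100). Replicate number holds most of KRT8, KRT18 and KRT10, and time point most of KRT15, KRT80, KRT7 and KRT23.

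KRT8 was called once, at 1 h with the replicate block (log2 fold change -0.20 ± 0.05 SE, edgeR Benjamini-Hochberg adjusted p = 0.0499), against 0.709 without it. The DMSO and 1 h values overlapped, although 1 h was lower in 4 of 4 pairs. KRT18 was called at no time, with log2 fold changes from -0.15 ± 0.13 (1 h) to -0.03 ± 0.13 (4 h, SE) and an edgeR adjusted p with the block of 0.223 or above. The log2 ratio of KRT18 to KRT8 was -0.97 ± 0.05 in DMSO and between -0.99 and -0.91 in the dTAG groups. None of its 4 tested differences passed (2-sided exact permutation p from 0.2 to 0.743), and the largest was 0.06 log2 units. KRT10 was called at no time, with log2 fold changes of 0.14 ± 0.19, 0.12 ± 0.19, 0.14 ± 0.19 and 0.00 ± 0.19 (SE) from 0.5 to 4 h. Its antisense KRT10-AS1 had 20.6 ± 1.2 CPM in DMSO and 22.1 to 23.2 CPM at the group means of 0.5 to 4 h.

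KRT80 (chr12:52168996-52192014), a type II keratin found near desmosomes and in cells that are differentiating or spreading, stayed near its control level. Its group means were 59.3 ± 3.0 in DMSO and 62.5 ± 2.3, 56.0 ± 2.1, 56.0 ± 2.9 and 59.8 ± 2.7 CPM at 0.5, 1, 2 and 4 h (SD, n = 4). All 4 groups overlapped with DMSO, and no edgeR Benjamini-Hochberg adjusted p against DMSO was under 0.468 at these times, blocked or not. The edgeR time course did not call KRT80 either, blocked or not, while time point held 54.4% of its variance from DMSO to 4 h. At 24 h the libraries had 55.2, 50.4 and 51.2 CPM, a log2 fold change of -0.18 ± 0.05 (SE) that was called only with the block. Antisense LINC00592 had 15.5 ± 1.2 CPM in DMSO and 16.7 ± 1.5 CPM at 24 h (SD, n = 4 and 3).

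KRT23, a type I keratin of simple epithelia that responds to differentiating stimuli in several tumor lines, was the member chosen for its fall at 24 h. The DMSO libraries had 24.8, 24.0, 26.0 and 19.6 CPM, and the 24 h libraries 13.7, 14.2 and 12.4 CPM. The 24 h values all lay below DMSO, as in 4.27% of genes tested, at a log2 fold change of -0.81 ± 0.10 (SE). The antisense gene around it, ENSG00000234477, had 8.01 ± 0.97 CPM in DMSO and 6.52 ± 1.42 CPM at 24 h (SD, n = 4 and 3), with overlapping ranges.

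The hours before 24 h were not used in the choice. At 0.5 h KRT23 had 22.9, 21.6, 24.8 and 24.5 CPM, and at 1 h 19.5, 22.3, 24.8 and 19.2 CPM. At 2 h it had 19.0, 20.8, 16.9 and 21.5 CPM, and at 4 h 18.3, 19.8, 18.9 and 19.96 CPM. The group means thus ran from 23.5 at 0.5 h to 21.5, 19.5 and 19.2 CPM, and each group overlapped with DMSO, whose replicate 4 was low. Against DMSO these were log2 fold changes of 0.00 ± 0.09, -0.13 ± 0.10, -0.27 ± 0.09 and -0.29 ± 0.09 (SE) in time order. None was called (edgeR Benjamini-Hochberg adjusted p of 1, 0.791, 0.365 and 0.284). These comparisons share the DMSO libraries with the 24 h comparison that chose the gene.

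The 4 h libraries can be set against those of 0.5 h, which shares no library with that choice. KRT23 was lower at 4 h in 4 of 4 pairs and the groups did not overlap, as in 2.46% of all genes. The log2 difference was -0.29 ± 0.09 (SE), with an edgeR Benjamini-Hochberg adjusted p of 0.25, and 0.114 with the replicate block, so it did not pass. In this comparison 0 of 8 members were called, where 0.871% of genes were (4.15% with the block). An unadjusted p under 0.05 in edgeR was found for 1 member and for 2283 of 26057 genes. DESeq2 called 0 members and 385 of 10889 genes.

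At 24 h the edgeR fit called KRT15 beside KRT23, which was chosen on this comparison, so that nothing is read from the count of 2 members (0.863% of all genes were called). With the block it called 4, adding KRT19 (log2 fold change -0.21 ± 0.03 SE) and KRT80, where 2.65% of genes were. DESeq2 without the block called KRT19 as well (-0.25 ± 0.06 SE), as did edgeR without the 4 h library of replicate 1. KRT7 stood at 0.05 ± 0.08 and KRT10 at 0.02 ± 0.20 log2 units (SE) from DMSO, and KRT8 and KRT18 at -0.26 ± 0.13 and -0.20 ± 0.14, with no call. KRT8, KRT15, KRT19 and KRT23 did not overlap with DMSO at 24 h, as 4.27% of genes did not in this direction. The 24 h group holds no replicate 1, the number that was highest in KRT8, KRT10, KRT15, KRT18, KRT19 and KRT80 in DMSO. With the block, which takes that out, the KRT8 and KRT18 values were -0.17 ± 0.06 and -0.11 ± 0.06. The KRT15 value was -0.29 ± 0.06 with the block, against -0.33 ± 0.08 without it.

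**Figure D5:**
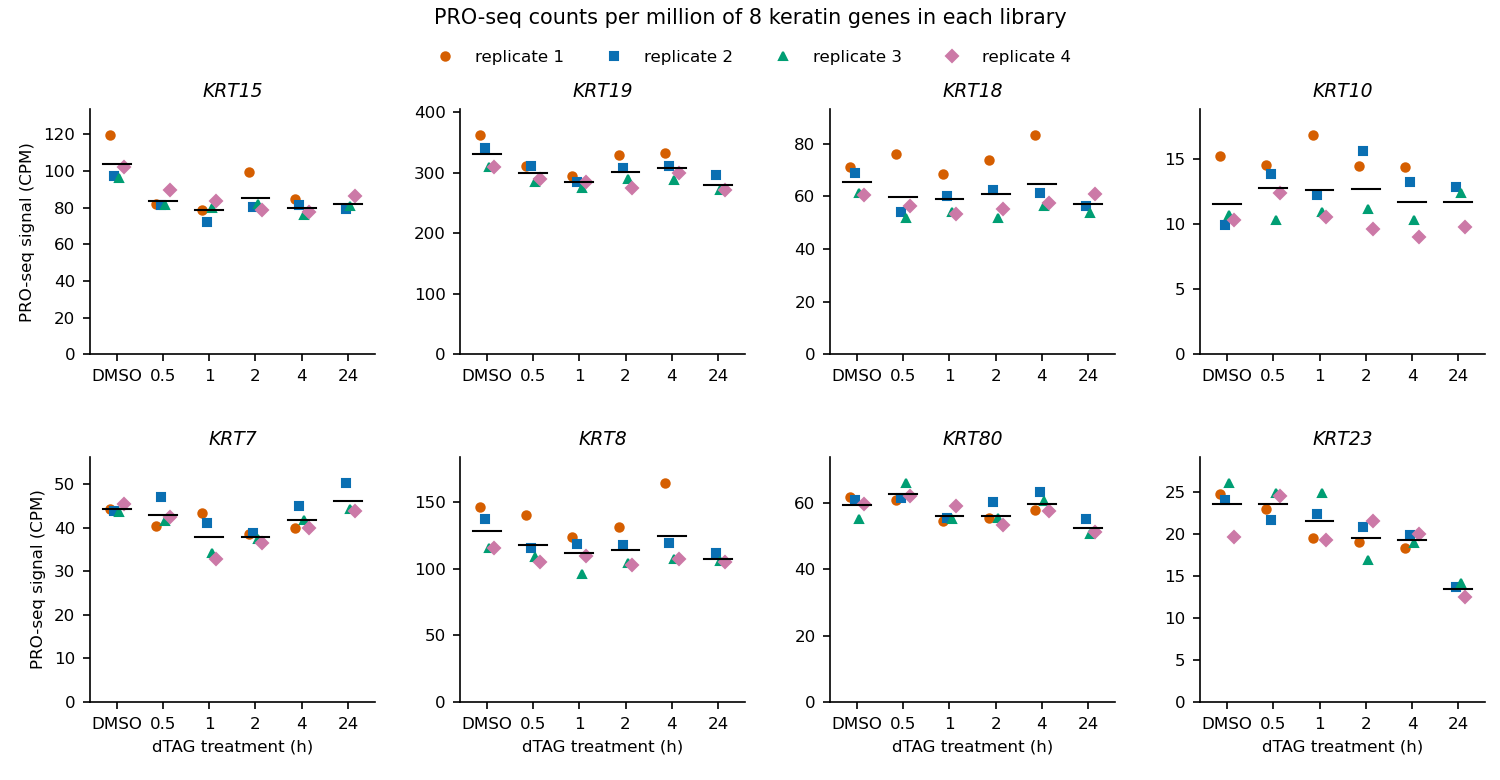
PRO-seq signal (CPM, linear axes from 0) of the 8 tested keratin genes in each of the 23 libraries by dTAG time, with replicate numbers as symbols and group means as bars. KRT15 steps down from 103.7 to 83.6 CPM by 0.5 h, KRT23 goes from 23.6 in DMSO to 13.4 CPM at 24 h, and replicate 1 (orange circles) is the highest library of KRT8 and KRT18 in each group from DMSO to 4 h.

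The genes whose pattern was most like that of KRT23 were searched among 14147 genes with at least 100 mean counts, over 23 libraries with replicate means removed. They were SPINK5 (Pearson r = 0.867), PARD3B (0.866), ZBTB16 (0.845), TPD52 (0.841) and FKBP5 (0.839). These are a serine protease inhibitor of epithelia, a polarity protein, a zinc-finger repressor, an endomembrane protein and an immunophilin of the steroid receptor complex. KRT23 was picked on the 24 h libraries, and they entered this search, so its ranking is a description. For the other members the nearest gene was HOXC4 for KRT15 (0.847), ENSG00000285867 for KRT19 (0.848), STXBP2 for KRT7 (0.834), CMTM4 for KRT8 (0.829), KTN1 for KRT18 (0.796), CMTM7 for KRT80 (0.820) and CAPN10-DT for KRT10 (0.734). KRT8 and KRT18 correlated with each other at 0.710.

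Few other keratins were transcribed in these cells. Of 23 other type I keratins 2 passed the filter, KRT39 and KRT222, and of 22 other type II keratins 1 did, KRT86. KRT39, a hair keratin 20770 bases upstream of KRT23 on the same strand, ranged from 21 to 1545 counts in a library. It had 8.68, 11.7, 4.80 and 5.04 CPM in DMSO and 61.8, 19.1, 171.6 and 124.4 CPM at 1 h, with 28.9 CPM in replicate 2 at 4 h and 22.5 CPM in replicate 1 at 0.5 h. All 1 h libraries lay above DMSO, as in 2.46% of genes tested, and those 2 other libraries lay above the lowest of 1 h. The rise at 1 h was 3.69 ± 0.80 log2 units (SE, edgeR Benjamini-Hochberg adjusted p = 0.0291), the time course was called as well (0.0078, edgeR adjusted p), and no other time against DMSO was called. KRT222 was called at no time. KRT86, a hair keratin, had 82.5 ± 2.8 CPM in DMSO and was not called without the block.

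Most genes that anchor keratin filaments were not called. Of 25 desmosome and hemidesmosome genes 21 passed the filter, and without the block 0 were called at 0.5 h (0.476% of all genes), 2 lower at 1 h (1.25%), 1 higher at 2 h (0.733%) and 1 higher at 4 h (0.833%). With the block 2 were lower at 0.5 h (2.48% of all genes), and 1 was higher and 3 were lower at 1 h (3.25%). The blocked fit had 2 higher at 2 h (2.43%) and 3 higher at 4 h (2.49%). EVPL (envoplakin) and ITGB4 (the beta chain of the hemidesmosomal integrin) fell at 1 h by 0.22 and 0.21 on the log2 scale (SE 0.06 and 0.05, edgeR Benjamini-Hochberg adjusted p = 0.0793 and 0.0404). DST (dystonin, a hemidesmosomal plakin) rose at 2 and 4 h, by 0.34 ± 0.08 and 0.38 ± 0.08 (SE, edgeR adjusted p = 0.0524 and 0.0167). Between 0.5 and 4 h DST and PKP2 (plakophilin, a desmosomal plaque protein) rose, by 0.39 ± 0.08 and 0.25 ± 0.06 log2 units (SE, edgeR adjusted p = 0.0249 and 0.0482). In that comparison 0.871% of all genes were called. At 0.5 h the median of the list on the log2 scale was -0.07, and at 4 h 0.03, against 0.01 over all genes at both times.

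Of 15 other intermediate filament genes 8 passed the filter, and BFSP2, a filament protein best known from the lens, was the member called. It rose by 0.34 ± 0.05 at 0.5 h and 0.23 ± 0.06 at 1 h on the log2 scale (SE, edgeR Benjamini-Hochberg adjusted p = 0.00437 and 0.0632). It was lower at 4 h than at 0.5 h, by -0.25 ± 0.05 (SE, edgeR adjusted p = 0.049). Over all genes 0.476% were called at 0.5 h, 1.25% at 1 h and 0.871% for 4 h against 0.5 h. Among the markers, the luminal factors GATA3 and SPDEF (the latter named after its values were seen) fell at each time from 0.5 to 4 h, 2 of 12 tested, where 0.476 to 1.25% of all genes were called. Of the 12 luminal markers 1, 0, 3 and 4 had a positive log2 fold change in time order, with list medians of -0.10, -0.09, -0.08 and -0.04. With the block 2, 4, 3 and 3 were called lower, where 2.43 to 3.25% of all genes were called. GATA3 stood at -0.22 ± 0.03 and SPDEF at -0.37 ± 0.05 at 1 h (SE, edgeR adjusted p = 0.000717 and 0.000639). Of the 5 tested basal markers TP63 was called, higher at 1, 2 and 4 h (0.49 ± 0.09 at 1 h, SE, edgeR adjusted p = 0.00504). Over all genes 1.25%, 0.733% and 0.833% were called at these times. None of 4 tested fibroblast and blood markers was called. Fewer cells of a type and less transcription per cell cannot be told apart in bulk libraries.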

How the data were processed

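PRO-seq was carried out on 23 libraries of T47D dTAG-TRPS1 Clone 28. Per the submitters' processing notes and the study's methods, the authors trimmed adapters with cutadapt 1.8.1, collapsed duplicates by unique molecular identifier, removed ribosomal reads, aligned to hg38 with Bowtie2 2.4.4 and SAMtools 1.9, and used bedtools for the gene counts. The deposited values are raw counts per gene, with no normalization. The annotation release and the strand setting are not given in the sources used here, and strand was checked with nested genes.

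Symbols, spans and overlaps were taken from GENCODE 44 by Ensembl identifier (60463 of 60605 matched). Counts were fitted in R 4.3.3 with edgeR 4.0.16 (TMM, filterByExpr with minimum count 10 and minimum total 15, glmQLFit and glmQLFTest). The filter kept 26057 genes for all 23 libraries and 25255 for the 20 libraries of the time course. Genes with a Benjamini-Hochberg adjusted p (FDR) under 0.1 over all kept genes are called, the threshold of the study. Standard errors are the fold change over the square root of F. CPM uses TMM-scaled library sizes. Ratios were compared with exact permutation tests over libraries (scipy). The members, the gene lists and the tests were chosen with earlier results of these data known. Named genes are the 10 members, the genes overlapping them, called genes of each list with at least 100 mean counts (at most 5, by smallest p, in tests without 24 h libraries), the 3 highest markers of each kind per kb, and the genes most similar in pattern (5 for KRT23, 1 for others).

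Replicates were treated and collected at separate times of a day, per the treatment protocol in the labels, and the time points were collected together, so a number was taken to mark a shared harvest. Deviations from group means correlated at a mean r of 0.287 between same-numbered libraries (55 pairs) and -0.0825 otherwise, and the mean per number was 0.578, 0.0896, 0.434 and 0.141 for replicates 1 to 4. The main design holds time point alone, the one term stated in the methods, and the replicate block was fitted beside it. No replicate pair was within sampling noise (chi-square per degree of freedom of 1.55 to 38.8 over 33 pairs). As nothing says that replicates were separate cultures beyond their dishes and times, p-values measure the spread between these libraries. Alternatives were size factors and tests of DESeq2 1.42.0, total counts, no filter, the 2 groups alone and leaving out replicates, and, chosen after seeing the data, leaving out the 4 h library of replicate 1. The edgeR fit without the replicate block was tested on simulated data that held no replicate effect, and the blocked fit was not.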

Additional observations from a re-analysis of the deposited data

Results flagged for a closer look

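In 3 of 50 groups of 4 libraries examined (10 members in 5 groups), 1 library stood apart from the other 3 by Dixon's test at the 95% level, which chance gives in about 1 of 20 groups. KRT10 in DMSO had 15.2 CPM in replicate 1, with the next library at 10.7. KRT15 at 0.5 h had 89.8 CPM in replicate 4, with the next at 81.9, still below every DMSO library. KRT15 at 2 h had 99.4 CPM in replicate 1, with the next at 82.0. Without replicate 1 in all groups, the 2 h value of KRT15 was called (log2 fold change -0.30, edgeR Benjamini-Hochberg adjusted p = 0.019), where it was not with all libraries.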

How the results depend on the processing

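Calls of members rested on single settings in many cases. With the replicate block the members called went from 1 to 3 over the time course, 1 to 2 at 0.5 h, 1 to 4 at 1 h, 0 to 3 at 2 h and 2 to 4 at 24 h. The block changed no call of KRT10, KRT18 or KRT23, nor the counts at 4 h and for 4 h against 0.5 h. DESeq2 called 2 over the time course (KRT7 and KRT15), 2 at 1 h (KRT15 and KRT19), 2 at 2 h (KRT7 and KRT15) and 3 at 24 h (KRT15, KRT19 and KRT23). With DESeq2 size factors 1 was called at 2 h. Scaling by total counts gave 0 at 0.5 h and 1 at 24 h, the same counts as without the low-count filter. The fit of the 2 groups alone gave 0 at 0.5 h, 0 at 4 h and 1 at 24 h, with fewer libraries behind the estimate of spread. Leaving out 1 replicate number in turn gave 0 to 1 over the time course, 0 at 0.5 h, 0 to 1 at 1 h, 0 to 1 at 2 h, 0 to 1 at 4 h and 1 to 2 at 24 h. Leaving out the 4 h library of replicate 1 gave 1, 1, 2, 1, 1 and 3 in the same order. Without replicate 2, 3 or 4 KRT15 lost its call at 24 h. In other cases the cause was not tested. No called value changed sign under any alternative, and of 528 member values computed 22 that were not called changed sign and stayed uncalled. Per kb of exon union every level per length moved by more than 1 SD. Depth of 4408544 to 17571616 counts leaves KRT13 and KRT81 with at most 12 and 11 counts in a library. Over all genes the calls were 335 without and 1162 with the block for the time course, 124 and 645 at 0.5 h, 325 and 846 at 1 h, 191 and 634 at 2 h, 217 and 650 at 4 h, 225 and 691 at 24 h, and 227 and 1082 for 4 h against 0.5 h. Scaling by total counts gave 93, 30, 142, 81, 87, 110 and 28 in the same order, and DESeq2 557, 261, 332, 286, 295, 344 and 385. The higher and lower calls were 112 and 79 at 2 h and became 63 and 18 with total counts, 162 and 173 over the time course became 56 and 37, 147 and 78 at 24 h became 96 and 14, and 151 and 76 for 4 h against 0.5 h became 12 and 16.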
